A study of Mus musculus with 7 samples.

Results

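Sialidases remove sialic acid from glycolipids and glycoproteins, and sialyltransferases attach it. The genes described here are sialidases (Neu1 and Neu4), enzymes that build gangliosides (St3gal5, St8sia1, B4galnt1, St3gal2 and St8sia5) and polysialyltransferases (St8sia2 and St8sia4). They were chosen by name from a list of 9, of which 8 had values among the 17422 genes with values; St8sia2 was not analysed here. The list was drawn up with levels of these genes in these libraries, and their differences between the groups, already known. Levels and differences of the 8 genes are therefore given as description without p-values, and limma results are given for other genes of the pathway. The lists of those other genes were also chosen with earlier results of these data known. Their adjusted p-values thus give a place among all genes and are no independent test. Where a member is said to be called, it passed the threshold of the fit over all genes (an adjusted p below 0.05), which records its place among all genes and is no test of a gene chosen in this way.

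Gangliosides are glycosphingolipids that carry sialic acid and are abundant in the plasma membrane of neural cells. They are built stepwise in the Golgi from lactosylceramide: St3gal5 makes the simplest ganglioside, GM3, St8sia1 adds a further sialic acid to give GD3, and B4galnt1 extends either product to GM2 or GD2. St3gal2 and St8sia5 add sialic acid to the longer products. Neu1, a lysosomal enzyme, and Neu4 take sialic acid off again. GD3 is known as a marker of neural stem cells, oligodendrocyte precursors and gliomas, and polysialic acid on the adhesion molecule Ncam1 as a feature of migrating precursors.

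RNA sequencing covered 7 mouse libraries in 3 groups, all of strain Balb/c and all from cells sorted for the red fluorescent protein DsRed. The 3 PDGF-B-labelled gliomas and the 3 EGFRvIII-labelled gliomas came from neural precursors of day 14 embryos that were transduced by retrovirus in culture with the oncogene plus DsRed. After 10 days each recipient, an adult BALB/c mouse of unstated age, received 20000 cells by intracranial injection, and tumours were taken when neurological signs appeared. Precursors were wild type for PDGF-B, a growth factor ligand, and Ink/Arf -/- for EGFRvIII, a truncated and constitutively active receptor. The third group is 1 culture of wild-type progenitors transduced with PDGF-B, sorted and never grafted. Oncogene and genotype of the precursors differ together between the glioma groups, so the effects of each cannot be told apart. No source used here names the promoter that drives the oncogene in the retrovirus. The design text calls the gliomas of each model independent tumours, and the comparison between them asks how the models differ.

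The oncogene transcripts ran against the labels. Egfr stood at 4552 ± 833 CPM (read counts scaled to the library total; SD, n = 3) in PDGF-B-labelled gliomas, 31.2 ± 8.63 CPM in EGFRvIII-labelled gliomas (SD, n = 3) and 282 CPM in the culture. Pdgfb stood at 3.27 ± 1.49 CPM in PDGF-B-labelled gliomas, 316 ± 60.9 CPM in EGFRvIII-labelled gliomas (SD, n = 3 each) and 245 CPM in the culture. Cdkn2a, the Ink/Arf gene, averaged 3.82 ± 1.05 CPM in PDGF-B-labelled gliomas and 19.98 ± 7.84 CPM in EGFRvIII-labelled gliomas (SD, n = 3 each), the group described as lacking it. Every direction below thus holds for libraries as labelled. Libraries held 32513754 to 39062584 estimated reads. All 7 expressed Sox2 and Olig2, markers of neural progenitors and of the oligodendrocyte lineage, at 134 CPM or more and 415 CPM or more. PDGF-B replicate 3 stood between the groups for several genes described below.

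To show where these genes are read, stretches before the annotated start are printed for both sialidases, for St8sia1 and for St8sia4, the members whose levels differed without overlap between the glioma groups and whose promoter was in the table used. RefSeq promoters (GRCm38.p6) were found for 5 of the 8 genes. Each line runs 5′ to 3′ on the gene's strand over 200 bases, from 250 to 51 bases before the RefSeq start, and capitals mark E-boxes (CANNTG), GC boxes (GGGCGG) and CCAAT boxes (CCAAT) on either strand.
Neu4, chr1:94020243-94020442, plus strand: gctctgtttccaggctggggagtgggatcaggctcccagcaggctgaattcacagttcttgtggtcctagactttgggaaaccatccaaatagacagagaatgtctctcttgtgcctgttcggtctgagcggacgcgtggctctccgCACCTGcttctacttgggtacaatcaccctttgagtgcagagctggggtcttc
Neu1, chr17:34931003-34931202, plus strand: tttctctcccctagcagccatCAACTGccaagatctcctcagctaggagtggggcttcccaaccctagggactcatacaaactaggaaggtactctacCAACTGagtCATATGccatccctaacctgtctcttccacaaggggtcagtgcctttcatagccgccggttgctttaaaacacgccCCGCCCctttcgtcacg
St8sia1, chr6:142964503-142964702, minus strand: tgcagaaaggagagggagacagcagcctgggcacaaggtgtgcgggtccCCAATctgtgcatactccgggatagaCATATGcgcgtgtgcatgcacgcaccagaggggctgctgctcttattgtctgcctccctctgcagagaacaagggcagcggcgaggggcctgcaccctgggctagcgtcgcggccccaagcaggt
St8sia4, chr1:95667645-95667844, minus strand: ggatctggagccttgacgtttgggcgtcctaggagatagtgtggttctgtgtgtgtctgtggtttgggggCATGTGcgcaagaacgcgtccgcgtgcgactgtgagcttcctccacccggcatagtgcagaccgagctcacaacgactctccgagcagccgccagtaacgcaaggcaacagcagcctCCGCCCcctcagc
The Neu4 stretch holds 1 E-box and neither of the other motifs. The Neu1 stretch holds 3 E-boxes and 1 GC box, the St8sia1 stretch 1 E-box and 1 CCAAT box, and the St8sia4 stretch 1 E-box and 1 GC box. Over all 32851 such stretches in the table, 59.0% hold an E-box, 24.6% a GC box and 28.4% a CCAAT box. The motif ACAAAG, bound by Sox factors, the E-box CAGCTG and the E-box CACGTG, which lysosomal genes often carry, were in none of these 4 stretches and in 13.6%, 10.3% and 4.3% of all of them. A match of letters is not a binding site, and a missing match speaks for these bases alone.

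Neu4 was the member with the widest range. It stood at 150.3, 233 and 81.4 CPM in PDGF-B-labelled replicates 1 to 3, at 13.8, 1.14 and 2.07 CPM in EGFRvIII-labelled replicates 1 to 3, and at 0.26 CPM in the culture. Every PDGF-B-labelled glioma lay above every EGFRvIII-labelled glioma, and the culture lay below all 6. Neu4 (ENSMUSG00000034000, chromosome 1, 94020451 to 94028334, GRCm38) encodes a sialidase that acts on gangliosides, on glycoproteins and, in mouse brain, on polysialic acid. These levels rest on 5161, 7674 and 2905 estimated reads in PDGF-B-labelled gliomas, on 482, 38 and 76 in EGFRvIII-labelled gliomas and on 9 in the culture.

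The mean Neu4 level was 155 ± 75.7 CPM in PDGF-B-labelled gliomas and 5.68 ± 7.07 CPM in EGFRvIII-labelled gliomas (SD, n = 3 each), a ratio of 27.2. The difference of mean log2 CPM was 5.43 ± 0.87 (SE) between the glioma groups. Against the culture it was 8.80 ± 1.24 (SE) in PDGF-B-labelled gliomas and 3.37 ± 1.24 (SE) in EGFRvIII-labelled gliomas. With 1 CPM added before taking logs, these became 6.82 in PDGF-B-labelled and 1.87 in EGFRvIII-labelled gliomas. Within the EGFRvIII label, replicate 1 carried most of the signal, and without it the difference between glioma groups grew to 6.47 on the log2 scale and that of EGFRvIII-labelled gliomas from the culture shrank to 2.32. In the fit over all genes Neu4 was called between the glioma groups. It was not called without PDGF-B replicate 1, PDGF-B replicate 2, EGFRvIII replicate 2 or EGFRvIII replicate 3.

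Neu1 had the opposite order. Its level was 20.6, 30.2 and 22.7 CPM in PDGF-B-labelled replicates 1 to 3, 36.9, 50.3 and 32.3 CPM in EGFRvIII-labelled replicates 1 to 3, and 16.6 CPM in the culture. The glioma groups did not overlap, although the gap between the highest PDGF-B-labelled and the lowest EGFRvIII-labelled glioma was small beside the spread within either group. Neu1 (ENSMUSG00000007038, chromosome 17, 34931253 to 34935953) encodes the lysosomal sialidase, which works in a complex with cathepsin A. The log2 difference was -0.69 ± 0.24 (SE) between PDGF-B-labelled and EGFRvIII-labelled gliomas, and Neu1 was not called. It was not called against the culture in either glioma group, at 0.55 ± 0.34 (SE) and 1.24 ± 0.34 (SE) on the log2 scale in PDGF-B-labelled and EGFRvIII-labelled gliomas. When libraries were scaled by their totals alone it was called in EGFRvIII-labelled gliomas against the culture, at 1.26.

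Because longer transcripts yield more fragments, levels of different genes were set side by side as CPM per kilobase of annotated exon. On that scale Neu4 made up 84.0%, 85.5% and 72.3% of the summed Neu1, Neu3 and Neu4 level in PDGF-B-labelled replicates 1 to 3. In EGFRvIII-labelled replicates 1 to 3 the share was 22.1%, 1.74% and 4.69%, and in the culture 1.12%. Neu1 thus led the measured sialidases in all EGFRvIII-labelled gliomas and the culture, and Neu4 in all PDGF-B-labelled gliomas. Neu3, a sialidase of the plasma membrane outside the member list, stayed between 1.17 and 2.15 CPM in all 7 libraries.

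**Figure D1:**
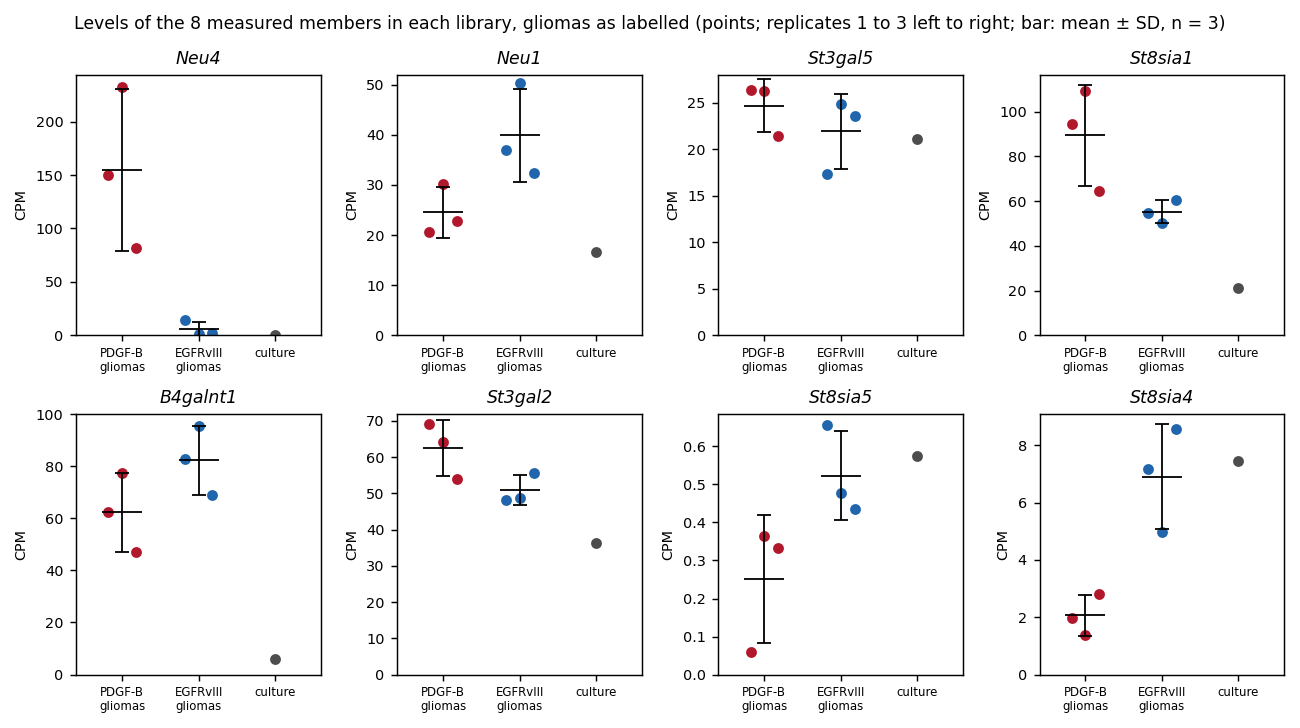
Level in CPM of each of the 8 measured members, 1 point per library, for PDGF-B-labelled gliomas (red), EGFRvIII-labelled gliomas (blue) and the progenitor culture (grey); black bars give mean ± SD of 3 gliomas. Neu4 spans 81.4 to 233 CPM in red against 1.14 to 13.8 CPM in blue, B4galnt1 is lowest in the culture at 5.79 CPM, and St3gal5 overlaps between the glioma groups.

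Among the ganglioside synthases, the entry enzyme St3gal5 varied least. St3gal5 stood at 26.4, 26.2 and 21.4 CPM in PDGF-B-labelled replicates 1 to 3, at 17.4, 24.9 and 23.6 CPM in EGFRvIII-labelled replicates 1 to 3, and at 21.1 CPM in the culture. The glioma groups overlapped, and the culture lay within the EGFRvIII-labelled range and just below the PDGF-B-labelled one. St3gal5 (ENSMUSG00000056091, chromosome 6, 72097592 to 72154571) makes GM3 from lactosylceramide. Its log2 differences were 0.18 ± 0.22 (SE) between PDGF-B-labelled and EGFRvIII-labelled gliomas, 0.22 ± 0.31 (SE) for PDGF-B-labelled gliomas against the culture and 0.04 ± 0.31 (SE) for EGFRvIII-labelled gliomas against the culture. The sign of the last turned under quantile normalisation (-0.095) and without EGFRvIII replicate 2 (-0.058) or EGFRvIII replicate 3 (-0.0196).

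St8sia1, the GD3 synthase, was higher than in the culture in all 6 gliomas and highest in PDGF-B-labelled ones. Its level was 94.4, 109 and 64.5 CPM in PDGF-B-labelled replicates 1 to 3, 54.6, 50.3 and 60.5 CPM in EGFRvIII-labelled replicates 1 to 3, and 21.3 CPM in the culture. The glioma groups did not overlap, with PDGF-B replicate 3 only just above EGFRvIII replicate 3. St8sia1 (ENSMUSG00000030283, chromosome 6, 142821545 to 142964452) differed by 2.03 ± 0.32 (SE) on the log2 scale between PDGF-B-labelled gliomas and the culture and by 1.37 ± 0.32 (SE) between EGFRvIII-labelled gliomas and the culture, and was called in both comparisons. Between the glioma groups the log2 difference was 0.67 ± 0.23 (SE), which was not called in the fit of 6 gliomas but was called without PDGF-B replicate 3, at 0.88. The call for EGFRvIII-labelled gliomas against the culture ended under 7 of 12 alternatives, among them quantile normalisation, library totals alone and the fits without EGFRvIII replicate 1, 2 or 3 or PDGF-B replicate 1, with log2 differences of 1.27 to 1.43 over all 12.

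The largest differences of a member from the culture, beside those of Neu4, were in B4galnt1. It stood at 62.4, 77.4 and 47.0 CPM in PDGF-B-labelled replicates 1 to 3, at 82.6, 95.4 and 68.7 CPM in EGFRvIII-labelled replicates 1 to 3, and at 5.79 CPM in the culture. The glioma groups overlapped, and every glioma lay far above the culture. B4galnt1 (ENSMUSG00000006731, chromosome 10, 127165225 to 127172330) encodes the GM2 and GD2 synthase, on which all complex gangliosides depend. Mean levels were 10.8-fold and 14.2-fold above the culture in PDGF-B-labelled and EGFRvIII-labelled gliomas, with log2 differences of 3.38 ± 0.33 (SE) and 3.80 ± 0.33 (SE). It was called in both comparisons with the culture. Between the glioma groups its log2 difference was -0.42 ± 0.23 (SE) and was not called. Of its annotated exon bases, 20.7% lie opposite exons of Slc26a10, and reads of the 2 genes cannot be told apart where counting ignores strand, and no source used here gives the strand setting.

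St3gal2 (ENSMUSG00000031749, chromosome 8, 110919922 to 110972480), which adds the terminal sialic acid of complex gangliosides, followed the same order as St8sia1 with smaller steps. Its level was 69.2, 64.2 and 54.0 CPM in PDGF-B-labelled replicates 1 to 3, 48.2, 48.7 and 55.7 CPM in EGFRvIII-labelled replicates 1 to 3, and 36.4 CPM in the culture. The glioma groups overlapped through PDGF-B replicate 3 and EGFRvIII replicate 3, and the culture lay below all gliomas. Log2 differences were 0.29 ± 0.17 (SE) between PDGF-B-labelled and EGFRvIII-labelled gliomas, 0.77 ± 0.24 (SE) for PDGF-B-labelled gliomas against the culture and 0.48 ± 0.24 (SE) for EGFRvIII-labelled gliomas against the culture. None was called.

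The sialyltransferases of low level had the reverse order between the glioma groups. St8sia5 (ENSMUSG00000025425, chromosome 18, 77185839 to 77258771), which adds sialic acid to complex gangliosides of neurons, stood at 0.058, 0.36 and 0.33 CPM in PDGF-B-labelled replicates 1 to 3, at 0.66, 0.48 and 0.44 CPM in EGFRvIII-labelled replicates 1 to 3, and at 0.57 CPM in the culture. These values rest on 2 to 12 estimated reads in PDGF-B-labelled gliomas, 16 to 22.9 in EGFRvIII-labelled gliomas and 19.8 in the culture, so counting error is wide. Its log2 difference between PDGF-B-labelled and EGFRvIII-labelled gliomas was -1.10 ± 0.63 (SE), was not called, and shrank to -0.50 without PDGF-B replicate 1 and to -0.29 with 1 CPM added before taking logs.

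St8sia4 (ENSMUSG00000040710, chromosome 1, 95587682 to 95667571) builds polysialic acid chains on Ncam1. It stood at 1.98, 1.39 and 2.83 CPM in PDGF-B-labelled replicates 1 to 3, at 7.17, 4.96 and 8.58 CPM in EGFRvIII-labelled replicates 1 to 3, and at 7.47 CPM in the culture. All PDGF-B-labelled gliomas lay below all EGFRvIII-labelled gliomas, and the culture lay within the range of EGFRvIII-labelled gliomas. The log2 differences were -1.73 ± 0.39 (SE) between PDGF-B-labelled and EGFRvIII-labelled gliomas and -1.88 ± 0.54 (SE) for PDGF-B-labelled gliomas against the culture. Neither was called, and both were called without PDGF-B replicate 3, at -1.98 and -2.13. EGFRvIII-labelled gliomas and the culture differed by -0.15 ± 0.54 (SE) on the log2 scale, which changed sign without EGFRvIII replicate 2.

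Counted over the list, 1 of 8 members was called between the glioma groups (Neu4), against 3.35% of all genes, and 5 had levels that did not overlap, against 22.9% of all genes. Against the culture, 3 members were called higher in PDGF-B-labelled gliomas (Neu4, B4galnt1 and St8sia1), where 9.45% of all genes were called. In EGFRvIII-labelled gliomas against the culture 2 were called (B4galnt1 and St8sia1), where 9.55% of all genes were called. The culture lay outside the range of PDGF-B-labelled gliomas for 8 of 8 members and outside that of EGFRvIII-labelled gliomas for 5 of 8, against 78.9% and 63.7% of all genes. All PDGF-B-labelled gliomas lay above the culture for 6 members, against 40.9% of all genes, and all EGFRvIII-labelled gliomas for 5, against 34.1% of all genes. These counts describe a list chosen with such results in view and support nothing by themselves. Comparisons with the culture share its 1 library, which has no replicate and was assumed to vary like the gliomas.

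**Figure D2:**
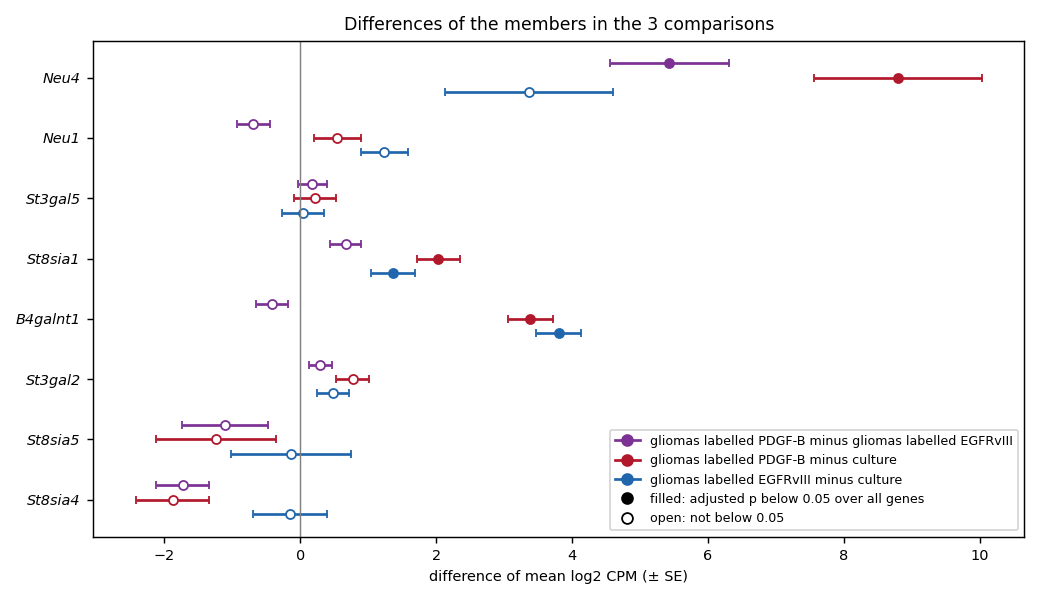
Difference of mean log2 CPM ± SE for each member in the 3 comparisons: PDGF-B-labelled minus EGFRvIII-labelled gliomas (purple), PDGF-B-labelled gliomas minus culture (red) and EGFRvIII-labelled gliomas minus culture (blue); filled points were called at an adjusted p of 0.05 over all genes. B4galnt1 lies at 3.38 and 3.80 above the culture and at -0.42 between the gliomas, while Neu4 lies at 5.43 between the gliomas.

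The order of the members per kilobase of exon differed by group. In PDGF-B-labelled gliomas Neu4 came first, at 33.4 ± 16.3 CPM per kilobase (SD, n = 3), followed by B4galnt1 at 18.03, St3gal2 at 12.4, St8sia1 at 9.56 and St3gal5 at 9.43 CPM per kilobase. The range of each of these over the gliomas overlapped that of its neighbour. Within every PDGF-B-labelled glioma, however, the order from Neu4 down to St8sia1 was the same. St3gal5 stood above St8sia1 in PDGF-B replicate 3 alone. In EGFRvIII-labelled gliomas B4galnt1 led without overlap, at 23.8 ± 3.86 CPM per kilobase (SD, n = 3), ahead of Neu1 at 10.7 and St3gal2 at 10.1, which overlapped, and Neu4 stood in the sixth place at a mean of 1.22. There Neu4 ranged from 0.245 to 2.98 CPM per kilobase, highest in EGFRvIII replicate 1, and overlapped St8sia4. In the culture St3gal5 and St3gal2 led at 8.06 and 7.21 CPM per kilobase, and B4galnt1, at 1.68, stood below St8sia1 at 2.28. St8sia4 and St8sia5 stayed at or below 0.43 CPM per kilobase in every library.

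Within a library, the level of B4galnt1 relative to St8sia1 differed by group. Per kilobase, this ratio was 1.79, 1.92 and 1.97 in PDGF-B-labelled replicates 1 to 3, 4.09, 5.13 and 3.07 in EGFRvIII-labelled replicates 1 to 3, and 0.74 in the culture. The groups did not overlap, and PDGF-B replicate 3, which stood apart for single genes, lay with its group here. The ratio of St8sia1 to St3gal5 was 1.00 ± 0.16 in PDGF-B-labelled gliomas, 0.72 ± 0.16 in EGFRvIII-labelled gliomas (SD, n = 3 each) and 0.28 in the culture, and the glioma groups overlapped.

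Other genes of sialic acid and ganglioside metabolism were listed by role, 55 in 7 lists, of which 51 had values. Between the glioma groups, limma called 1 of them higher and 8 lower in PDGF-B-labelled gliomas. Against the culture, 13 were called higher in PDGF-B-labelled gliomas and 18 in EGFRvIII-labelled gliomas, and none lower. Unadjusted p was under 0.05 for 23 of the 51 between the glioma groups (16.7% of all genes), for 25 in PDGF-B-labelled gliomas against the culture (27.2% of all genes) and for 28 in EGFRvIII-labelled gliomas against the culture (23.9% of all genes). The background was 0.717% of all genes called higher and 2.63% lower between the glioma groups, 7.73% higher and 1.73% lower for PDGF-B-labelled gliomas against the culture, and 8.2% higher and 1.34% lower for EGFRvIII-labelled gliomas against the culture. The 9 calls between the glioma groups rest on the full set of gliomas: 0 of the 51 genes were called without PDGF-B replicate 1 or 2 or without EGFRvIII replicate 1, 2 or 3, and 14 were called without PDGF-B replicate 3.

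The called genes that break gangliosides down were lower in PDGF-B-labelled than in EGFRvIII-labelled gliomas. Of 10 lysosomal breakdown genes, 3 were called lower and none higher, and 6 had an unadjusted p under 0.05, with a median log2 difference of -0.99 against -0.0001 over all genes. Hexa takes part in the breakdown of GM2. It stood at 60.98, 48.2 and 83.8 CPM in PDGF-B-labelled replicates 1 to 3, at 200.5, 549.9 and 221 CPM in EGFRvIII-labelled replicates 1 to 3, and at 23.1 CPM in the culture. The glioma groups did not overlap, and the log2 difference between them was -2.21 ± 0.41 (SE, limma adjusted p = 0.0376). Glb1, the lysosomal beta-galactosidase, differed by -1.52 ± 0.27 (SE, limma adjusted p = 0.0328). Psap, the precursor of the saposins that present glycolipids to these enzymes, was the most abundant of the list per kilobase, at 338 and 897 CPM per kilobase in PDGF-B-labelled and EGFRvIII-labelled gliomas and 151 in the culture. Gm2a, the activator protein of GM2 breakdown, was called higher in both glioma groups than in the culture, at 446 ± 175 CPM in PDGF-B-labelled gliomas, 433 ± 105 CPM in EGFRvIII-labelled gliomas (SD, n = 3 each) and 71.1 CPM in the culture. Its PDGF-B-labelled call ended without PDGF-B replicate 1 and its EGFRvIII-labelled call without EGFRvIII replicate 1 or 2 (limma adjusted p = 0.0587, 0.0562 and 0.0520).

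Ctsa, which encodes cathepsin A, the protein that keeps Neu1 stable, stood in the same order over the 3 groups as Neu1. It stood at 101, 131 and 178 CPM in PDGF-B-labelled replicates 1 to 3, at 550.1, 1160 and 601 CPM in EGFRvIII-labelled replicates 1 to 3, and at 56.7 CPM in the culture. The glioma groups did not overlap, with a log2 difference of -2.45 ± 0.35 (SE, limma adjusted p = 0.0254). Per kilobase, Ctsa exceeded Neu1 4.51 ± 1.48 times in PDGF-B-labelled gliomas, 14.9 ± 3.23 times in EGFRvIII-labelled gliomas (SD, n = 3 each) and 2.71 times in the culture. Between the glioma groups Npl, which cleaves free sialic acid, was the called gene among 10 of sialic acid supply and turnover. Casd1 of the same list, described below, was called against the culture. Npl stood at 4.95 ± 1.68 CPM in PDGF-B-labelled gliomas and 42.6 ± 36.5 CPM in EGFRvIII-labelled gliomas (SD, n = 3 each, log2 difference -2.82 ± 0.58, SE, limma adjusted p = 0.0489). EGFRvIII replicate 2 stood apart for Npl, at 84.7 CPM against 19.1 and 24.0 CPM in EGFRvIII replicates 1 and 3, and without it the log2 difference was -2.16. Slc35a1, which carries activated sialic acid into the Golgi and was the most abundant of the list per kilobase, stood at 25.2 ± 1.43 CPM in PDGF-B-labelled gliomas, 23.3 ± 0.81 CPM in EGFRvIII-labelled gliomas (SD, n = 3 each) and 29.6 CPM in the culture, and was not called. The genes that make and activate sialic acid, Gne, Nans, Nanp and Cmas, were not called in any comparison.

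Markers of microglia and macrophages moved with these genes. All 15 markers of that list were measured, and their summed level was 391 to 1749 CPM in PDGF-B-labelled gliomas, 6187 to 14104 CPM in EGFRvIII-labelled gliomas and 7.64 CPM in the culture. None was at 0 in a glioma, and 4 were at 0 in the culture, namely C1qb, Trem2, Tyrobp and Fcrls. C1qa stood at 119 ± 87.2 CPM in PDGF-B-labelled gliomas and 1592 ± 1200 CPM in EGFRvIII-labelled gliomas (SD, n = 3 each). Within the EGFRvIII label, replicate 2 was highest in the summed markers, in Neu1, in Ctsa and in Hexa. Within the PDGF-B label, replicate 3 was highest in the summed markers, in Ctsa and in Hexa, while Neu1 was highest in replicate 2. Lyz2, the other leading marker, stood at 22.4, 19.2 and 613 CPM in PDGF-B-labelled replicates 1 to 3, at 2358, 1785 and 821 CPM in EGFRvIII-labelled replicates 1 to 3, and at 0.10 CPM in the culture. All libraries came from cells sorted for DsRed, and how far the sort left out host cells without the reporter was not tested. The part of microglia and macrophages in the levels of Neu1, Ctsa and the lysosomal genes was not tested either. In libraries of pooled sorted cells fewer cells of a type and less RNA per cell cannot be told apart.

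Of 7 measured receptors that bind sialic acid, 3 were called lower in PDGF-B-labelled than in EGFRvIII-labelled gliomas. These were Cd22, Cd33 and Siglecf, receptors of immune cells. Cd22 stood at 0.84, 0.82 and 2.55 CPM in PDGF-B-labelled replicates 1 to 3 and at 26.9, 24.9 and 28.0 CPM in EGFRvIII-labelled replicates 1 to 3 (log2 difference -4.39 ± 0.46, SE, limma adjusted p = 0.0186). Cd33 averaged 13.4 ± 11.5 CPM and 79.2 ± 12.1 CPM, and Siglecf 1.38 ± 0.37 CPM and 15.8 ± 9.34 CPM, in PDGF-B-labelled and EGFRvIII-labelled gliomas (SD, n = 3 each), with limma adjusted p of 0.0359 and 0.0311. Without PDGF-B replicate 3 the log2 difference was -4.91 for Cd22 and -3.55 for Cd33. Cd22, Cd33, Siglecf and Siglech had 0 reads in the culture, which allows up to 0.0868 CPM (3 reads, counting error only). Cd33 was thus at least 154-fold higher in PDGF-B-labelled gliomas and at least 913-fold higher in EGFRvIII-labelled gliomas than in the culture. PDGF-B replicate 3 carried much of the first value, and without it the bound was at least 77.2-fold. With a pseudocount of 1 CPM, which damps values near 0, Cd22, Siglecf, Siglech and Siglece were no longer called in PDGF-B-labelled gliomas against the culture. Against the culture, 6 of 7 receptors were called higher in PDGF-B-labelled gliomas and 7 of 7 in EGFRvIII-labelled gliomas, with medians of 4.09 in PDGF-B-labelled and 8.26 in EGFRvIII-labelled gliomas on the log2 scale when genes without culture reads are set at that limit. The call of Siglece in PDGF-B-labelled gliomas and that of Siglec1 in EGFRvIII-labelled gliomas each ended under 8 of 12 alternatives. Mag, a myelin protein that binds gangliosides on axons, was called higher in both glioma groups than in the culture. It stood at 7.31 ± 0.90 CPM in PDGF-B-labelled gliomas, 5.22 ± 1.94 CPM in EGFRvIII-labelled gliomas (SD, n = 3 each) and 0.46 CPM in the culture.

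Of 11 ganglioside synthesis genes outside the members, limma called 0 between the glioma groups, with 2 at an unadjusted p under 0.05. St8sia3, which acts on gangliosides and glycoproteins of brain, was called higher in both glioma groups than in the culture. It stood at 90.1, 96.3 and 11.6 CPM in PDGF-B-labelled replicates 1 to 3, at 80.6, 50.2 and 29.6 CPM in EGFRvIII-labelled replicates 1 to 3, and at 0.77 CPM in the culture. The gliomas overlapped and all lay above the culture, with log2 differences of 5.82 ± 1.15 (SE, limma adjusted p = 0.0236) for PDGF-B-labelled and 5.90 ± 1.15 (SE, limma adjusted p = 0.0203) for EGFRvIII-labelled gliomas. The PDGF-B-labelled call ended without PDGF-B replicate 1 (limma adjusted p = 0.0529), and without PDGF-B replicate 3 its log2 difference was 6.82. The EGFRvIII-labelled call ended without EGFRvIII replicate 1 or 2 (limma adjusted p = 0.0599 and 0.0612). B4galt6, a lactosylceramide synthase and the most abundant of the list per kilobase, stood at 139 ± 30.6 CPM in PDGF-B-labelled gliomas, 96.7 ± 16.3 CPM in EGFRvIII-labelled gliomas (SD, n = 3 each) and 110.0 CPM in the culture, and was not called.

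Of 8 sialyltransferases that act mainly on glycoproteins, St3gal6, St6gal1 and St6gal2 were called higher in both glioma groups than in the culture. St3gal6 stood at 45.5 ± 13.6 CPM in PDGF-B-labelled gliomas, 39.0 ± 5.79 CPM in EGFRvIII-labelled gliomas (SD, n = 3 each) and 3.81 CPM in the culture. Its log2 differences from the culture were 3.51 ± 0.38 (SE, limma adjusted p = 0.00319) in PDGF-B-labelled and 3.33 ± 0.38 (SE, limma adjusted p = 0.00238) in EGFRvIII-labelled gliomas. St6gal2, a sialyltransferase expressed in brain, was also the 1 gene of all 51 called higher in PDGF-B-labelled than in EGFRvIII-labelled gliomas. It stood at 91.7, 83.4 and 56.8 CPM in PDGF-B-labelled replicates 1 to 3, at 34.7, 30.8 and 34.7 CPM in EGFRvIII-labelled replicates 1 to 3, and at 10.8 CPM in the culture. The groups did not overlap, and the log2 difference between gliomas was 1.18 ± 0.22 (SE, limma adjusted p = 0.0359). St3gal4, the most abundant of the list per kilobase, stood at 122, 108 and 42.0 CPM in PDGF-B-labelled replicates 1 to 3, at 23.5, 28.2 and 27.5 CPM in EGFRvIII-labelled replicates 1 to 3, and at 22.4 CPM in the culture. The glioma groups did not overlap, and St3gal4 was not called (log2 difference 1.64 ± 0.39, SE, limma adjusted p = 0.0757). Casd1, which adds O-acetyl groups to sialic acids, was called higher in both glioma groups than in the culture, at 47.7 ± 8.10 CPM in PDGF-B-labelled gliomas, 41.2 ± 1.56 CPM in EGFRvIII-labelled gliomas (SD, n = 3 each) and 19.0 CPM in the culture. Some of these calls rested on single libraries. For PDGF-B-labelled gliomas against the culture, St6gal1 was not called without PDGF-B replicate 1 or 2 or EGFRvIII replicate 1 (limma adjusted p = 0.0677, 0.0828 and 0.0562), nor Casd1 without PDGF-B replicate 1 or 2 or EGFRvIII replicate 3 (limma adjusted p = 0.0862, 0.0637 and 0.0504). For EGFRvIII-labelled gliomas against the culture, St6gal2 was not called without EGFRvIII replicate 1 or 3 (limma adjusted p = 0.0547 and 0.0566), and Casd1 was not called when any glioma but PDGF-B replicate 3 was left out, nor under quantile normalisation or without trend and robust moderation (limma adjusted p = 0.0528 to 0.101).

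Carriers of polysialic acid were not called in any comparison (limma, 0 of 3). Unadjusted p was under 0.05 for 2 of them between the glioma groups and for 1 in each comparison with the culture. Ncam1, the main carrier, stood at 448 ± 94.3 CPM in PDGF-B-labelled gliomas, 249 ± 38.4 CPM in EGFRvIII-labelled gliomas (SD, n = 3 each) and 209 CPM in the culture, the reverse of the order of St8sia4. The other measured carriers, Nrp2 and Cadm1, were lower in PDGF-B-labelled than in EGFRvIII-labelled gliomas, as St8sia4 was. Their log2 differences were -1.24 ± 0.36 (SE) and -0.31 ± 0.17 (SE).

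**Figure D3:**
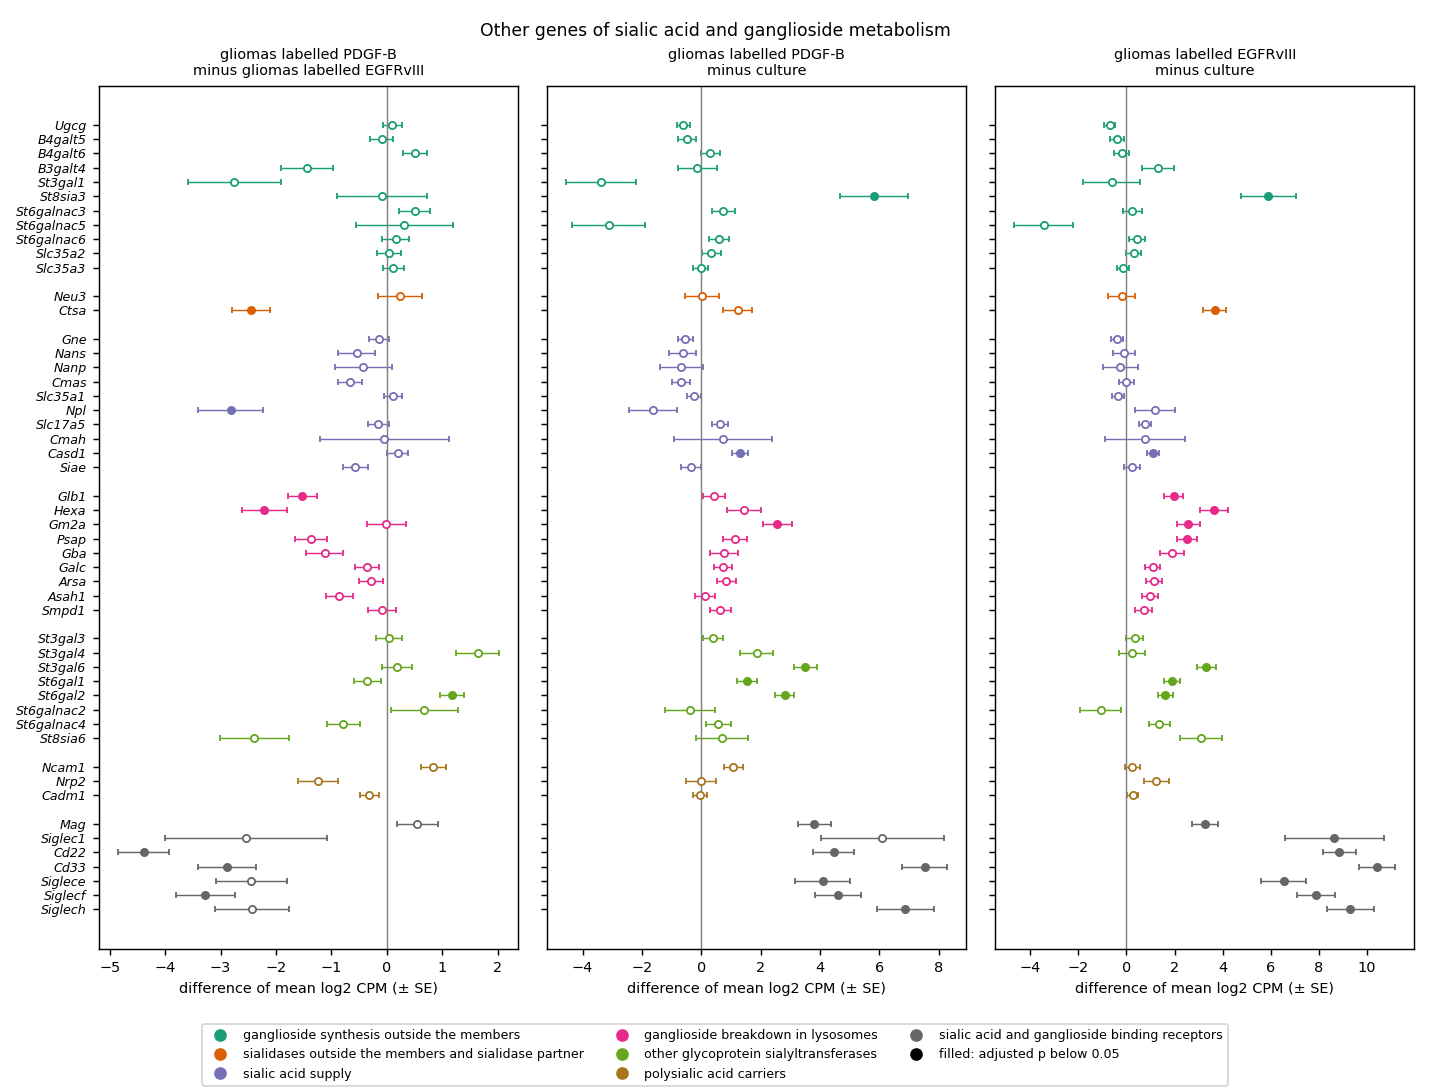
Difference of mean log2 CPM ± SE of other genes of the pathway, coloured by list, in the same 3 comparisons; filled points were called at an adjusted p of 0.05 over all genes. Between the gliomas (left panel) the filled points of lysosomal breakdown and of the receptors lie below 0, with Cd22 at -4.39 and Hexa at -2.21, and St6gal2 lies above at 1.18.

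The markers of oligodendrocyte precursors, the cells in which Neu4 is best known, moved with Neu4 in part. All 12 were measured, led by Ptprz1 and Pdgfra, and none was at 0. Their summed level was 17723, 24657 and 13506 CPM in PDGF-B-labelled replicates 1 to 3, 13105, 10117 and 10835 CPM in EGFRvIII-labelled replicates 1 to 3, and 5607 CPM in the culture. Libraries stood in the same order for Neu4 as for this sum, from the culture up to PDGF-B replicate 2, yet the sum spanned a far smaller range. The summed levels were nearly equal in PDGF-B replicate 3 and EGFRvIII replicate 1, where Neu4 stood at 81.4 and 13.8 CPM. The part of these cells in the Neu4 level was not tested.

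Other marker lists were recorded beside these. Each sum follows its most abundant genes, and genes of some lists differed in direction against the culture. On the log2 scale, PDGF-B-labelled gliomas averaged above the culture for the neuronal markers Dcx, Gad1, Gad2, Snap25 and Slc17a7. They averaged below it for Syt1, Stmn2, Tubb3 and Rbfox3. Among astrocyte markers Slc1a2, S100b and Aldoc lay above it, and Slc1a3, Aldh1l1, Gja1, Aqp4 and Gfap below. Among mural markers Acta2 and Pdgfrb lay below. Between the glioma groups, some markers averaged lower in PDGF-B-labelled gliomas on the log2 scale. These were the astrocyte markers Gja1, Aqp4, Aldh1l1, Gfap and Slc1a3 and the myelin markers Mobp, Mal, Aspa and Ermn. Others were the neuronal markers Rbfox3, Syt1, Stmn2 and Slc17a7 and the mural markers Acta2 and Pdgfrb. None of these was called, and the other measured markers of these lists averaged higher. The 11 measured myelin markers, led by Ugt8a and Cnp, summed to 862 to 1069 CPM in PDGF-B-labelled gliomas, 459 to 643 CPM in EGFRvIII-labelled gliomas and 215 CPM in the culture. The 8 astrocyte markers, led by Slc1a2 and Slc1a3, summed to 1885 to 2481 CPM in PDGF-B-labelled gliomas, 1424 to 1541 CPM in EGFRvIII-labelled gliomas and 1631 CPM in the culture. The 9 neuronal markers, led by Dcx and Gad1, summed to 278 to 550.2 CPM in PDGF-B-labelled gliomas, 235 to 297 CPM in EGFRvIII-labelled gliomas and 145 CPM in the culture. The 8 neural progenitor markers, led by Vim and Fabp7, were highest in the culture, at 7849 CPM, with 880 to 2374 CPM in PDGF-B-labelled and 1664 to 2495 CPM in EGFRvIII-labelled gliomas. Endothelial markers (5 measured, led by Flt1 and Kdr) stayed at or below 28.5 CPM in every library, and red blood cell markers (4 measured, led by Hbb-bs and Hba-a2) reached 89.2 CPM in EGFRvIII replicate 2 and 10.3 CPM or less elsewhere. The 6 mural markers, led by Cspg4, which oligodendrocyte precursors share, and by Rgs5, summed to 772 to 1331 CPM in PDGF-B-labelled gliomas, 611 to 754 CPM in EGFRvIII-labelled gliomas and 116 CPM in the culture. The T cell markers were not analysed here.

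**Figure D4:**
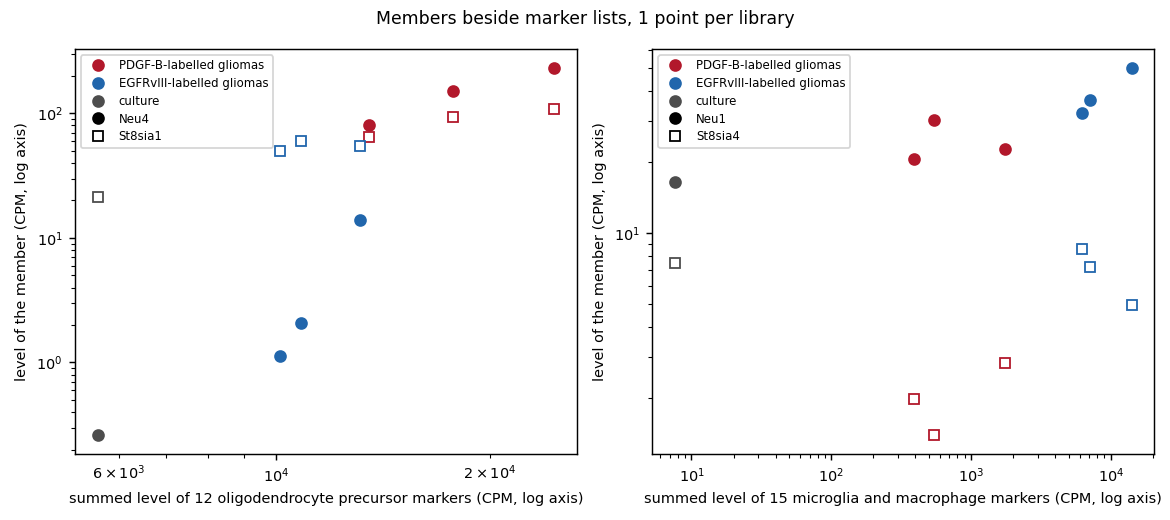
Level of Neu4 and St8sia1 beside the summed level of 12 oligodendrocyte precursor markers (left), and of Neu1 and St8sia4 beside that of 15 microglia and macrophage markers (right), 1 point per library, CPM on log axes; colours mark PDGF-B-labelled gliomas (red), EGFRvIII-labelled gliomas (blue) and the culture (grey). On the left, PDGF-B replicate 3 and EGFRvIII replicate 1 share nearly the same marker sum but differ in Neu4 (81.4 and 13.8 CPM); on the right, the culture holds 7.64 CPM of the markers and 16.6 CPM of Neu1.

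Genes whose log2 levels ran most like a member over the 7 libraries were listed for 3 members, among 11360 genes with a mean of at least 5 CPM. For Neu4 these were Col20a1, Tmtc2, Nr3c1, Gimap8 and Adamts5, with Pearson correlations of 0.998 to 0.980. Col20a1, a collagen gene, stood at 226 CPM on average in PDGF-B-labelled gliomas, 25.7 CPM in EGFRvIII-labelled gliomas and 3.37 CPM in the culture, and like Neu4 it was highest within the EGFRvIII label in replicate 1, at 57.4 CPM. For St8sia1 they were Epn2, Aldh6a1, Pde4dip, Pcsk6 and Atg13 (0.999 to 0.995). For Neu1 they were Acer3, Pex16, Myd88, Cln8 and Map3k8 (0.995 to 0.983). Acer3, a ceramidase, stood at 27.9 CPM in PDGF-B-labelled gliomas, 43.0 CPM in EGFRvIII-labelled gliomas and 20.2 CPM in the culture. With 7 libraries in 3 groups and the best taken from so many genes, such values are high by construction and describe these libraries alone.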

How the data were processed

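Per the submitters' processing notes, reads were handled with STAR, edgeR and the mm10 build; no source used here gives versions, quantifier, gene filter or strand setting. The deposited values are log2 CPM per the file headers of 6 libraries; EGFRvIII replicate 3 has a header without a unit but the same lowest value, -4.12. The 17422 Ensembl IDs were matched to GENCODE M21 (GRCm38), and 17247 had a symbol. A prior count of 2 was undone to give CPM, and the size of 1 read was recovered from low values. The library size this implied differed from the read total, for EGFRvIII replicate 2 at 33454305 against 39062584 reads. Values below 200 reads were multiples of 0.01 read, so reads are estimates, and 36.2% to 38.6% of values were whole reads (within 0.02 read), too few for a count test; depth was 32513754 to 39062584 reads. Intervals and floors cover counting error only.

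The deposited log2 values were tested with limma 3.58.1 in R 4.3.3, with trended and robust empirical Bayes moderation and Benjamini-Hochberg adjustment over all 17422 genes; called means an adjusted p below 0.05. The comparison between glioma groups used the 6 gliomas, and both comparisons with the culture used all 7 libraries in 3 groups, each with 4 residual degrees of freedom. The labels call the gliomas biological replicates. The procedure was also run on simulated data in which the culture was given the spread of the gliomas. That run cannot show whether the culture varied like them.

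The members and lists were chosen with earlier results of these data known. Named are the members, the oncogene checks, in each list the 3 called genes of smallest p per comparison and the most abundant per kilobase, the 2 most abundant markers of each cell type and, for 3 members, the 5 genes most like them. Neu3, Gne, Nans, Nanp, Cmas, Siglec1, Siglece, Sox2, Olig2 and the markers at 0 are named beyond this rule, after their values were seen. So are Nrp2, Cadm1 and the markers given for their direction against the culture or between the glioma groups. 1 gene of the lysosomal breakdown list enters the counts, but its own values are not reported here. Alternatives were quantile normalisation, library totals alone, pseudocounts of 0.5 and 1 CPM, a mean of at least 1 CPM, no trend or robust moderation, a replicate block and leaving out each glioma.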

Additional observations from a re-analysis of the deposited data

How the results depend on the processing

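Between the glioma groups, the count of members called was 1 with all libraries, 0 without trend and robust moderation, and 0 to 3 when 1 glioma was left out; it was 1 under the other scalings, pseudocounts and the filter. The count of other pathway genes called was 9, against 3 without trend and robust moderation and 0 to 14 when 1 glioma was left out, and that of all genes was 583, against 4 to 1282. The largest counts came without PDGF-B replicate 3. Against the culture, leaving out 1 glioma gave 3 to 4 members called in PDGF-B-labelled gliomas and 1 to 2 in EGFRvIII-labelled gliomas, where quantile normalisation and the fit without trend and robust moderation each gave 1. St3gal5 in EGFRvIII-labelled gliomas minus the culture turned to -0.095 under quantile normalisation, -0.058 without EGFRvIII replicate 2 and -0.0196 without EGFRvIII replicate 3 (0.20 at most, without EGFRvIII replicate 1), and St8sia4 turned to 0.071 without EGFRvIII replicate 2 (-0.32 without EGFRvIII replicate 3, and -0.54 under quantile normalisation); the cause was not tested. Quantile normalisation moved the median of all genes by -0.13 and -0.21 on the log2 scale in PDGF-B-labelled and EGFRvIII-labelled gliomas against the culture, and library totals alone moved the first by 0.12. Neu1 was called in EGFRvIII-labelled gliomas against the culture under library totals alone, at 1.26. A replicate block between the glioma groups gave 0 members and 0 other pathway genes called, and 18 of all genes. Same-numbered gliomas correlated at 0.18, -0.036 and -0.080 in their deviations from the group means, and differently numbered ones at -0.25 to 0.207. With 3 gliomas per group these values cannot decide whether the numbers pair the samples. The block could not be fitted with the single culture. St8sia5, at 2 to 22.9 reads, gave no value under the filter on the mean, and its differences are limited by depth.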
